A study of Homo sapiens with 3 samples.

Results

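Microtubules are hollow polymers of alpha- and beta-tubulin dimers, and dividing cells rebuild them into the mitotic spindle. Of the 22613 genes listed in each library, 10 of this system are described here: the alpha-tubulins TUBA1A, TUBA1B, TUBA1C and TUBA4A, the beta-tubulins TUBB2A, TUBB3, TUBB4B and TUBB6, the gamma-tubulin TUBG1, and STMN1, which encodes stathmin. Members were taken by gene symbol. The samples were cells of the prostate cancer line LNCaP-abl, derived from LNCaP cells and able to grow without androgen, kept in medium with charcoal-stripped serum. Every culture received a lipid transfection reagent with siRNA for 72 h: control siRNA in 2 libraries, numbered 0 and 1 in the labels, and a pool of siRNAs against the transcription factor E2F1 in 1 library (siE2F1). No siE2F1 value has a replicate. Whether the controls came from separate cultures is not stated in the labels, so the p-values reflect no more than the difference between 2 control libraries, possibly a technical one.

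Alpha- and beta-tubulin form the dimer that adds to microtubule ends, and gamma-tubulin sits in the ring complex from which new microtubules grow. Stathmin binds free dimers and promotes microtubule disassembly until kinases phosphorylate it at mitosis. Cells also adjust tubulin mRNA to the pool of free dimers, through the ribosome-bound factor TTC5, which triggers decay of tubulin mRNAs as they are translated. E2F factors bind DNA with a DP partner and activate genes for S phase, and stathmin is abundant in many dividing cells.

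The promoter letters of the members differ. The first stretches shown are those of the 2 members with E2F letters, the motif of the silenced factor. RefSeq windows (GRCh38.p14) from 250 bases before to 50 after each annotated start were available for 10 of 10 members, 16 windows in all. E2F letters were TTTCCCGC, TTTCGCGC, TTTGCCGC or TTTGGCGC, on either strand. Both STMN1 and TUBG1 hold TTTGGCGC just before a start, 38 and 31 bases upstream, with a CCAAT box (the NF-Y letters) 75 and 67 bases upstream. The STMN1 stretch is chr1:25906440-25906519 on the minus strand and the TUBG1 stretch is chr17:42609583-42609662 on the plus strand, each running from 100 to 21 bases before the start. Capitals mark the E2F letters and the CCAAT box, which reads ATTGG where it lies on the other strand.
STMN1: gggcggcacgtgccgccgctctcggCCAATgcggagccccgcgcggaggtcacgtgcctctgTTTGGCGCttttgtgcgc
TUBG1: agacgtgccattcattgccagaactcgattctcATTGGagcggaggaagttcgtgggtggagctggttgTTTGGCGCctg

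In the TUBB4B window, shown because it holds the most CCAAT boxes of the members, there are 3, with the CHR letters TTTGAA 242 bases before the start. CHR letters (TTTGAA or TTCGAA) mark promoters of many late cell cycle genes. The stretch is chr9:137241037-137241196 on the plus strand, from 250 to 91 bases before the start, with CCAAT and TTTGAA in capitals.
TUBB4B: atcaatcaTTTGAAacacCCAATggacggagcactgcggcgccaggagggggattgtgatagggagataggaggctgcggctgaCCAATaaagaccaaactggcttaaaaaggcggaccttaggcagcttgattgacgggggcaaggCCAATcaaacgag

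Counted by gene, 2 of the 10 members held E2F letters in any window, 3 held CHR letters and 7 held CCAAT, while 3 (TUBA1B, TUBA4A and TUBB2A) held none of them. STMN1 has a second match, TTTCCCGC, 250 bases before another of its annotated starts. Counted the same way, 3.99% of all 27305 genes with windows held E2F letters, 19.5% CHR letters and 39.7% CCAAT. Over all 35116 single windows the shares were 3.31%, 16.4% and 34.6%, and 1.22% held E2F letters and CCAAT together. A match is a run of letters and says nothing of binding in these cells.

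Near-identical coding sequences make reads of some members hard to assign. Over the coding sequences of GENCODE release 29 transcripts, TUBA1A and TUBA1B are 97.2% identical, TUBA1A and TUBA1C 95.9%, and TUBA1A and TUBA4A 84.4%. The beta-tubulins are 83.4% (TUBB4B and TUBB6) to 87.7% (TUBB2A and TUBB3) identical. No source used here tells how the authors' counting split reads between such genes. By the sequence each shares with other genes, counted further below, the single values of TUBA1A, TUBA1B, TUBA1C, TUBB2A and TUBG1 are uncertain. That of TUBB3 is uncertain because an annotated readthrough gene covers the same exons. For TUBA1A, TUBA1B and TUBA1C the sum of the alpha-tubulins is less so. TUBB2A and TUBB3 share most sequence with genes that are not members, so a sum over the beta-tubulin members does not remove their uncertainty.

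All 10 members were lower in the siE2F1 library than in either control. Their levels in siE2F1 ran from 43.4% of the control mean for TUBB6 to 79.5% for TUBA4A. Genes whose siE2F1 value was below both controls made up 39.7% of the 14401 genes tested, those averaging 1 FPKM or more (FPKM is a fragment count scaled for transcript length and sequencing depth). The median log2 fold change was -0.60 for the members and 0.01 for all genes tested, computed like all others below from log2(FPKM + 1), so that changes of low genes come out too small. The controls themselves differed by at most 0.15 log2 units in any member. For each of the 10 members the gap from siE2F1 to the nearer control was larger than the difference between the controls. The share of all genes that met this was not counted, so the count has no background beside it.

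E2F1, the silenced gene, stood at 10.6 and 10.6 FPKM in control 0 and control 1 and at 1.68 FPKM in siE2F1 (log2 fold change -2.12, limma adjusted p = 0.0311). E2F1 did not pass limma when all genes above 0 FPKM in any library were tested (adjusted p = 0.159). Nor did it pass when 0.1 replaced 1 as the pseudocount (adjusted p = 0.0601). No member passed limma over all genes tested (0 of 10), where 0.104% of genes were called lower. At an unadjusted p under 0.05, 9 of the 10 members were lower, beside 14.9% of all genes tested. Without small RNA genes, where limma's prior degrees of freedom were 3.19 in place of 1.69, 7 of 10 members passed as lower and none as higher, where 6.36% of genes were called lower. The 3 that did not pass there were TUBA1C (adjusted p = 0.0590), TUBG1 (adjusted p = 0.0579) and TUBA4A (adjusted p = 0.103). RNA came from bulk cultures, so fewer cells of a type and less RNA per cell cannot be told apart.

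**Figure D1:**
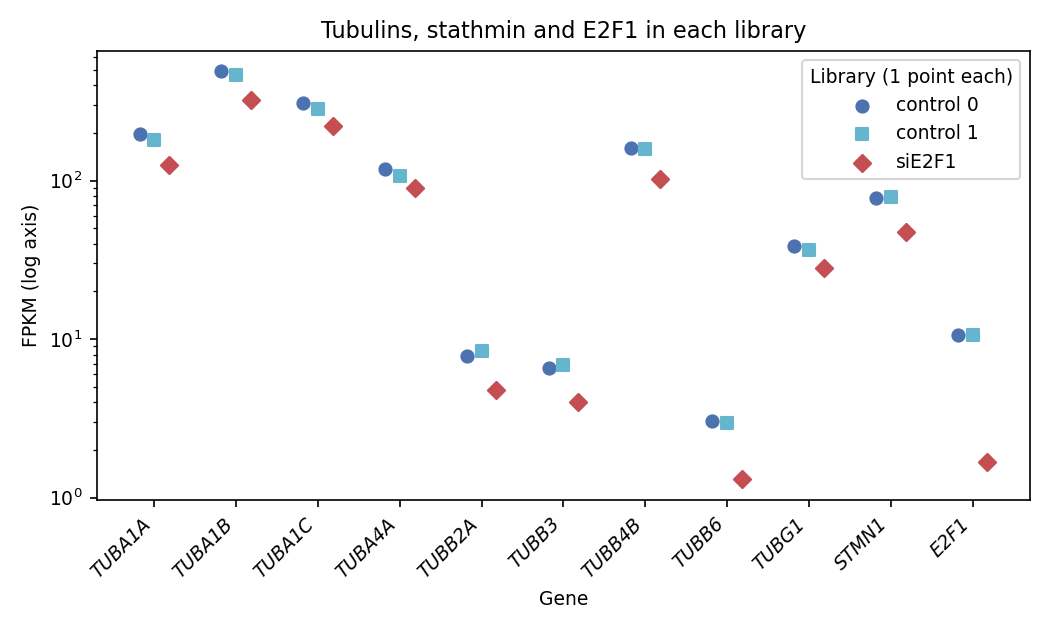
FPKM on a log axis for the 10 members and E2F1, with 1 point per library (circles control 0, squares control 1, diamonds siE2F1) and no error bars since siE2F1 has 1 library. In every gene shown the siE2F1 diamond is below both control points, and the members range from 1.30 FPKM (TUBB6 in siE2F1) to 490.0 FPKM (TUBA1B in control 0).

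Among the alpha-tubulins TUBA1B, the most abundant member, was at 490.0 and 460.7 FPKM in control 0 and control 1 and at 320.9 FPKM in siE2F1. Its log2 fold change was -0.56 ± 0.08 (standard error, limma; adjusted p = 0.112 over all genes and 0.0379 without small RNA genes). TUBA1A measured 195.6 and 179.1 FPKM in the controls and 125.2 FPKM in siE2F1. Its log2 fold change was -0.58 (limma adjusted p = 0.115, and 0.0403 without small RNA genes). TUBA1A is the alpha-tubulin best known from developing neurons. In the order control 0, control 1 and siE2F1, TUBA1C was at 309.8, 283.2 and 219.5 FPKM (log2 fold change -0.43, adjusted p = 0.138). TUBA4A, an alpha-tubulin whose gene lacks the codon for the terminal tyrosine, was at 118.9, 107.0 and 89.8 FPKM (log2 fold change -0.33, adjusted p = 0.186), the smallest change of the members. In each of these 4 genes control 1 was the lower control and siE2F1 lay below it.

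Summed over the 4 alpha-tubulins, the level was 1114 and 1030 FPKM in the controls and 755.4 FPKM in siE2F1. That is 70.5% of the control mean, 67.8% of control 0 and 73.3% of control 1, while control 1 was itself at 92.4% of control 0. The makeup of the sum moved little beside this. TUBA1B gave 44.0% and 44.7% of it in the controls and 42.5% in siE2F1, and TUBA4A gave 10.7%, 10.4% and 11.9%.

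TUBB4B, a widely expressed beta-tubulin, measured 160.3 and 157.4 FPKM in the controls and 102.2 FPKM in siE2F1. Its log2 fold change was -0.63 ± 0.06 (standard error, limma; adjusted p = 0.111, and 0.0350 without small RNA genes). The controls lay 0.03 log2 units apart and siE2F1 was far outside them. In the same order TUBB2A was at 7.84, 8.48 and 4.75 FPKM (log2 fold change -0.67, adjusted p = 0.111, and 0.0365 without small RNA genes). TUBB3, the class III beta-tubulin used as a marker of neurons, was at 6.53, 6.87 and 4.02 FPKM (log2 fold change -0.62, adjusted p = 0.111, and 0.0367 without small RNA genes). In TUBB2A and TUBB3 control 1 was the higher of the controls, the opposite of TUBB4B and the alpha-tubulins, and siE2F1 again lay below both.

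TUBB6, the class V beta-tubulin, had the lowest level and the largest change of the members. It measured 3.05 and 2.96 FPKM in the controls and 1.30 FPKM in siE2F1 (log2 fold change -0.80 ± 0.08, standard error, limma; adjusted p = 0.111, and 0.0353 without small RNA genes). With a pseudocount of 0.1 in place of 1 its log2 fold change was -1.14. The 4 beta-tubulins summed to 177.7 and 175.7 FPKM in the controls and to 112.3 FPKM in siE2F1, 63.5% of the control mean. TUBB4B alone gave 90.2%, 89.6% and 91.0% of that sum in control 0, control 1 and siE2F1. The alpha sum was 6.27 and 5.86 times the beta sum in the controls and 6.73 times in siE2F1. TUBB, a further beta-tubulin, was not analysed here, so the beta sum covers the 4 named genes and no more, and the ratio is not that of all alpha- to all beta-tubulin mRNA.

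TUBG1, the gamma-tubulin of centrosomes, measured 38.9 and 36.5 FPKM in the controls and 28.3 FPKM in siE2F1. Its log2 fold change was -0.40 ± 0.08 (standard error, limma; adjusted p = 0.127). STMN1, whose promoter stretch was printed with that of TUBG1, lay further below its controls. The difference between the 2 genes was not tested. STMN1 measured 77.3 and 78.7 FPKM in the controls and 47.3 FPKM in siE2F1, 60.7% of the control mean. Its log2 fold change was -0.71 ± 0.06 (standard error, limma; adjusted p = 0.111, and 0.0320 without small RNA genes), second in size to TUBB6. That rank holds with the pseudocount of 1. As a percent of the control mean, TUBB2A (58.2%) and TUBB3 (60.0%) were also lower than STMN1. With a pseudocount of 0.1 the log2 fold changes were -0.768 for TUBB2A, -0.722 for TUBB3 and -0.719 for STMN1. Set against the 8 alpha- and beta-tubulins summed, STMN1 was 5.98% and 6.52% of their FPKM in the controls and 5.46% in siE2F1.

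**Figure D2:**
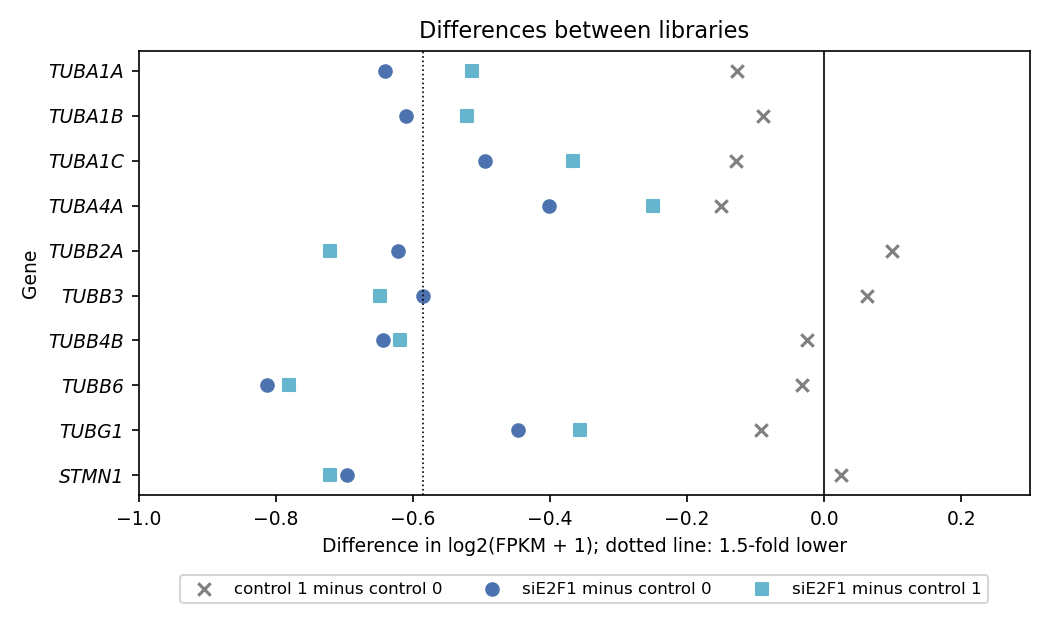
Differences in log2(FPKM + 1) for each member: siE2F1 minus control 0 (circles), siE2F1 minus control 1 (squares) and control 1 minus control 0 (crosses). All circles and squares lie between -0.81 (TUBB6) and -0.25 (TUBA4A), left of every cross, and the dotted line marks 1.5-fold lower.

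By size alone, 5 of the 10 members lay at least 1.5-fold below both controls, beside 3.37% of all genes tested. They were TUBB6, STMN1, TUBB2A, TUBB4B and TUBB3. TUBB3 was just inside that limit (-0.585 against control 0) and TUBA1B and TUBA1A just outside it (-0.52 and -0.51 against control 1). All 4 beta-tubulins and STMN1 met the limit and none of the 4 alpha-tubulins did. Whether the classes differ was not tested. Against control 0 alone, a looser rule, 7 members were at least 1.5-fold lower. The share of all genes under that rule was not counted.

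The members spanned a wide range of levels. The order by FPKM was the same in each of the 3 libraries: TUBA1B, TUBA1C, TUBA1A, TUBB4B, TUBA4A, STMN1, TUBG1, TUBB2A, TUBB3 and TUBB6. The control values of neighbours in that order did not overlap; the closest by ratio were TUBA1A, at 187.3 ± 11.7 FPKM (SD, n = 2), and TUBB4B, at 158.8 ± 2.00 FPKM (SD, n = 2). TUBA1B ranked 137 from the top of the 14401 genes tested by mean level, and TUBB6 ranked 11947. Among the 706 genes averaging 100 FPKM or more, which hold TUBA1A, TUBA1B, TUBA1C, TUBA4A and TUBB4B, 39.0% were below both controls, 4.39% were at least 1.5-fold below both, and the median log2 fold change was 0.02.

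**Figure D3:**
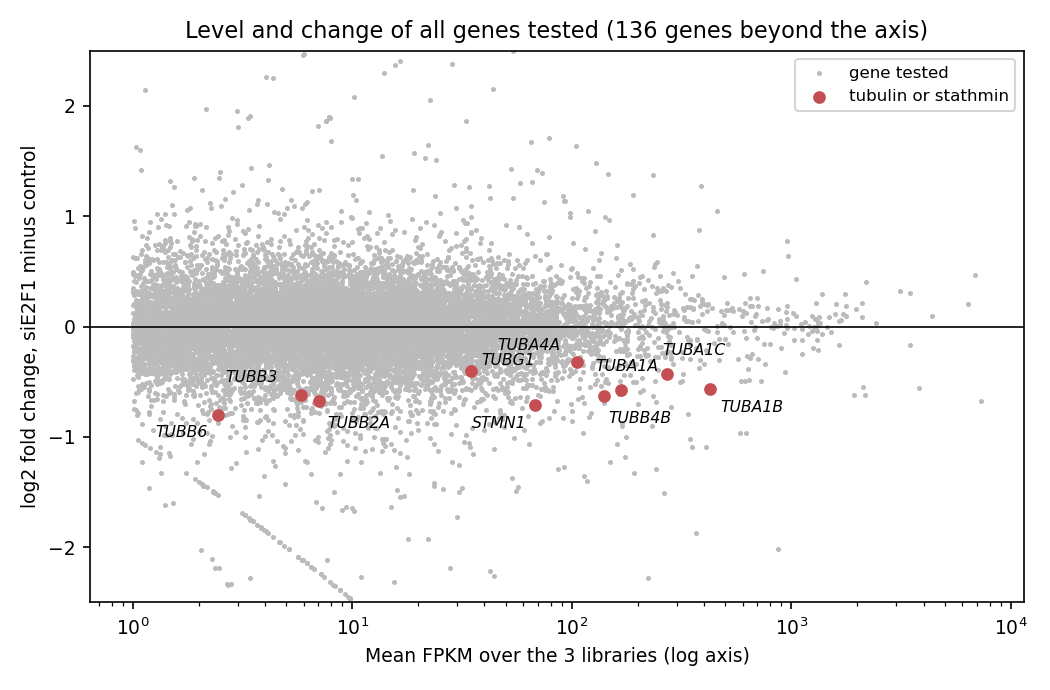
Mean FPKM over the 3 libraries (log axis) against the log2 fold change of siE2F1 over the control mean, with 1 grey point per gene tested and the members in red; 136 genes lie beyond the vertical axis. The red points sit between -0.80 (TUBB6) and -0.33 (TUBA4A) at low and high levels alike.

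Reads of near-identical genes bear on these values unequally. For each member the main transcript was cut into all windows of 50 bases, and the share also present in transcripts of another gene was counted. STMN1 shared 0% of its windows with any other gene, TUBB6 0.993%, TUBA4A 5.25% and TUBB4B 9.89%. TUBG1 shared 29.9%, mostly with TUBG2, TUBA1C 25.1%, TUBA1A 41.1% and TUBA1B 62.7%. TUBB2A shared 65.5%, of which TUBB2B alone covers 60.3%, and TUBB3 shared 89.4%, with an annotated readthrough gene over the same exons. The members with the least shared sequence, STMN1, TUBB6, TUBA4A and TUBB4B, were at 60.7%, 43.4%, 79.5% and 64.3% of the control mean. Every member was below both controls, so any subset had to be. The part that shared reads had in the values was not tested.

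**Figure D4:**
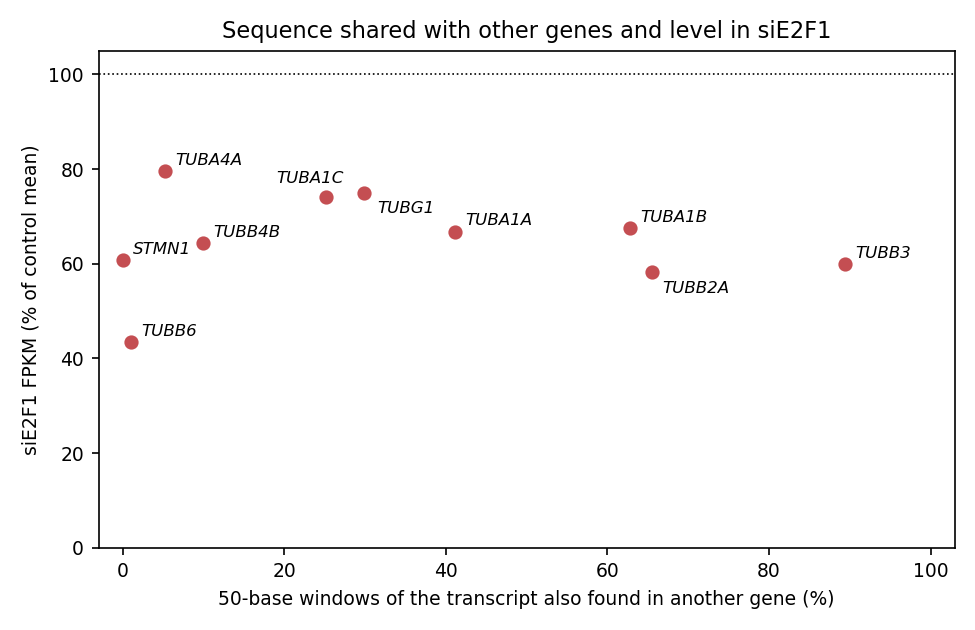
Share of 50-base windows of each member's transcript found in another gene (horizontal, %) against its siE2F1 level as a percent of the control mean (vertical, %), with 1 point per member. All points lie below the dotted line at 100%, whatever their shared sequence, which was lowest for STMN1 (0%) and TUBB6 (0.993%).

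Strand is not marked by the library kit, and reads from genes with overlapping exons on the opposite strand cannot be told from those of the member. In the order control 0, control 1 and siE2F1, STK16, which overlaps TUBA4A, was at 10.5, 10.4 and 10.3 FPKM. FAM134C (now RETREG3) overlaps TUBG1 and was at 12.51, 12.97 and 12.94 FPKM, between the controls in siE2F1. FAM166A overlaps TUBB4B and was at 7.97, 7.96 and 5.45 FPKM, lower in siE2F1 as TUBB4B was. TUBA1A and TUBA1C overlap each other in the annotation. Annotated antisense genes also overlap TUBA1B and TUBA1C on the opposite strand, and their levels were not examined here.

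The other tubulins gave a mixed picture. In this list and those that follow, counts at an unadjusted limma p under 0.05 take both directions. Of the 14401 genes tested, 4087 fell under it in either direction. Of 13 in the files, 7 reached the level for testing, with a median log2 fold change of -0.43; 6 of these were below both controls and 1 above, and 0 passed limma (4 at an unadjusted p under 0.05, 3 called lower without small RNA genes). The beta-tubulins TUBB2B (4.79, 5.03 and 2.73 FPKM in control 0, control 1 and siE2F1), TUBB4A (3.50, 3.68 and 2.06 FPKM) and TUBB8 (5.62, 5.25 and 3.24 FPKM) were the 3 called there (adjusted p = 0.0365, 0.0403 and 0.0392). TUBA4B was at 10.7, 9.41 and 7.17 FPKM. These genes share sequence with members and are uncertain one by one.

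The tubulins outside the alpha and beta classes that are not members had small differences from the controls. TUBG2, the second gamma-tubulin, was at 18.7, 18.5 and 16.6 FPKM (log2 fold change -0.15, adjusted p = 0.233). The delta- and epsilon-tubulins TUBD1 and TUBE1, which serve centrioles, had log2 fold changes of -0.04 and 0.11. The remaining alpha- and beta-tubulins, TUBA8 (1.13, 1.04 and 0.763 FPKM), TUBA3C, TUBA3D, TUBA3E, TUBAL3 and TUBB1, were too low to test. TUBAL3 was above both controls (0.148, 0.154 and 0.235 FPKM), and each of the others was below both. Of the other stathmins, which are neuronal, STMN3 was at 1.09, 1.17 and 1.21 FPKM and STMN2 and STMN4 were below 1 FPKM in each library.

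Genes for proteins that nucleate microtubules had values on both sides of the controls. In the list of gamma-tubulin ring and augmin genes, 13 of 18 were below both controls and 2 above (median log2 fold change -0.23), with 0 passing limma, 9 at an unadjusted p under 0.05 and 3 called lower without small RNA genes. Those 3 were HAUS4 (21.3, 21.2 and 11.3 FPKM, adjusted p = 0.0272), whose log2 fold change of -0.86 was larger in size than that of any member, and HAUS7 (5.15, 5.01 and 3.05 FPKM, adjusted p = 0.0377), of the augmin complex that branches spindle microtubules, and NEDD1 (8.85, 9.47 and 5.69 FPKM, adjusted p = 0.0376), which brings the ring complex to the centrosome. The order of HAUS4 and the members holds with the pseudocount of 1 and not with 0.1, where HAUS4 had -0.91 and TUBB6 -1.14. In FPKM, HAUS4 was at 53.1% of the control mean and TUBB6 at 43.4%. TUBGCP6, a ring subunit, was above both controls at 10.1, 8.86 and 11.7 FPKM; it was picked out once its values had been seen.

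Tubulin folding genes were described in a chaperonin list and a list of cofactors and prefoldin, and a difference between them was not tested. The CCT chaperonin, which folds new tubulin, had 7 of 8 subunits below both controls and 0 above (median log2 fold change -0.25, 0 passing limma, 5 at an unadjusted p under 0.05). CCT6A, at 152.9, 146.1 and 110.9 FPKM, was the 1 subunit called lower without small RNA genes (adjusted p = 0.0470). CCT5 (-0.38) and CCT4 (-0.32) followed by log2 fold change. The tubulin cofactors and prefoldin had 6 of 12 below and 6 above (median -0.0007, 0 passing limma, 5 at an unadjusted p under 0.05). In that list ARL2, a GTPase that acts with the cofactors, was at 21.7, 23.9 and 35.9 FPKM and was called higher without small RNA genes (adjusted p = 0.0392), where 4.17% of genes were; genes above both controls made up 43.8% of all tested. Prefoldin subunits lay on both sides, with log2 fold changes of -0.41 for VBP1 and 0.35 for PFDN5.

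Genes that act on tubulin mRNA or on the finished polymer did not move as a block. The factors of tubulin mRNA decay, TTC5 (6.35, 7.98 and 5.46 FPKM), SCAPER (7.24, 7.04 and 6.27 FPKM) and CNOT11 (33.7, 33.6 and 32.8 FPKM), were below both controls in siE2F1, with 0 of 3 passing limma and 0 at an unadjusted p under 0.05. For TTC5 the controls differed by more than siE2F1 did from control 0. Tubulin-modifying enzymes had 4 of 14 below and 8 above (median 0.09, 0 passing limma, 3 at an unadjusted p under 0.05), with AGTPBP1, a deglutamylase, at -0.56 (called lower without small RNA genes, adjusted p = 0.0409), TTL, the tubulin tyrosine ligase, at -0.34 and TTLL3 at 0.29. Microtubule-binding and severing genes had 9 of 18 below and 5 above (median -0.08, 0 passing limma, 4 at an unadjusted p under 0.05). TACC3, a spindle protein, was at 60.5, 54.3 and 32.4 FPKM and was called lower without small RNA genes (adjusted p = 0.0358), while its relative TACC2 was at 12.7, 10.6 and 17.0 FPKM (log2 fold change 0.51) and the severing gene KATNAL1 had a log2 fold change of -0.40.

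**Figure D5:**
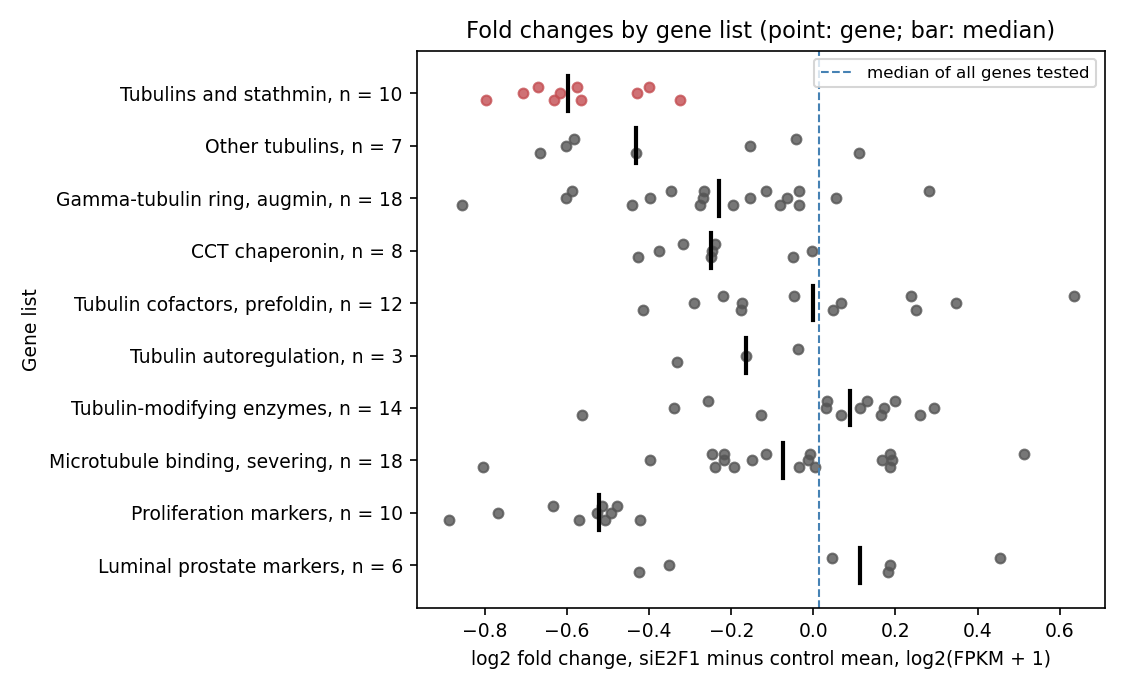
Log2 fold change of each tested gene, siE2F1 over the control mean on log2(FPKM + 1), by gene list, with 1 point per gene and a bar at each median; the dashed line is the median of all genes tested (0.01). The members (median -0.60), proliferation markers (-0.52), CCT chaperonin (-0.25) and tubulin autoregulation genes (-0.16) lie left of 0 throughout, with CCT3 nearly at 0 (-0.004). The other lists, among them the cofactors and modifying enzymes, span both sides.

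Proliferation markers were lower in siE2F1 too. All 10 were below both controls, with a median of -0.52 in log2 fold change (0 passing limma, 10 at an unadjusted p under 0.05, 9 called lower without small RNA genes). Their summed level was 444.0 and 440.6 FPKM in the controls and 284.8 FPKM in siE2F1. PLK1, a mitotic kinase, was at 37.8, 32.9 and 18.6 FPKM, PCNA, the replication clamp, at 116.7, 115.7 and 67.8 FPKM, and TOP2A, a topoisomerase, at 26.4, 27.2 and 16.9 FPKM. The part that the share of dividing cells had in the members' values was not tested.

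Most markers of the labelled cell type were present: of 7 luminal prostate genes 6 reached the level for testing, while KLK2, a prostate kallikrein, was at 0.188, 0.403 and 0.417 FPKM. The luminal prostate list was led by FOLH1 at 317.6, 338.9 and 338.9 FPKM (also picked out once seen) and summed to 759.7 and 775.9 FPKM in the controls and 815.4 FPKM in siE2F1, with 2 of 6 tested genes below both controls and 3 above (median 0.11, 0 passing limma, 3 at an unadjusted p under 0.05). KRT8, TMPRSS2 and HOXB13 had log2 fold changes of 0.45, -0.42 and -0.35, and without small RNA genes TMPRSS2 was called lower (adjusted p = 0.0498). The basal keratin KRT14 was listed at 0 in each library. Of the 6 neuronal and neuroendocrine markers in the files, ENO2 was at 47.4, 45.5 and 32.4 FPKM and NCAM1 at 2.05, 1.88 and 1.66 FPKM, both below both controls (0 of 2 passing limma, 1 at an unadjusted p under 0.05). Without small RNA genes ENO2 was called lower and NCAM1 was not. SYP, CHGB, DCX and SNAP25 were each below 0.4 FPKM in every library. The markers of this list thus differ in level, and what they mean for the TUBB3 values was not tested. Of the leukocyte markers LYZ was at 3.66, 3.51 and 3.84 FPKM and PTPRC was at 0.842, 1.15 and 0.423 FPKM.

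The genes whose differences from the 2 controls were nearest to those of TUBB6 were MAP1LC3B, AURKB, PIF1, LYN and RPP25. The measure was the Euclidean distance in the pair of differences of siE2F1 from control 0 and from control 1, which was 0.00886 for MAP1LC3B, an autophagy protein, and 0.0151 for AURKB, a mitotic kinase. With 3 libraries this measure separates little: 80 of 13927 genes lay within 0.1 of TUBB6. In its FPKM values AURKB stood at 23.6, 23.1 and 13.1 across control 0, control 1 and siE2F1.

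Set beside their promoters, the 2 members with E2F letters, STMN1 and TUBG1, stood at -0.71 and -0.40 in log2 fold change, and the 3 with none of the searched letters, TUBB2A, TUBA1B and TUBA4A, at -0.67, -0.56 and -0.33. The ranges overlap. Of the 14401 genes tested, 8828 could be matched to a promoter window by symbol, and the rest are left out here. Among those matched, the 598 with E2F letters had a median log2 fold change of -0.05, and 50% of them were below both controls. The 8230 without had a median of 0.01, with 41.5% below both. These shares describe letters in the windows and were not tested.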

How the data were processed

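The authors deposited log2 FPKM for 22613 genes per library. Per the submitters' processing notes, the build was hg19 and the tools were Cufflinks 2.0.2 and TopHat2 2.0.4; no parameter or annotation is named there. The lowest deposited log2 value equals log2 of 0.1, so FPKM was computed as 2 raised to the value, minus 0.1. Between libraries the sorted values differ by 0.0653 or less, which forces equal distributions and hides any change shared by most genes. Without read counts the depth is unknown and no counting interval can be given.

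The 14401 genes averaging 1 FPKM or more were tested on log2(FPKM + 1) in R 4.3.3 with limma 3.58.1 (mean-variance trend, two-sided, Benjamini-Hochberg over all genes tested, threshold 0.05). The spread comes from the 2 controls alone, with 1 residual degree of freedom per gene, and siE2F1 is assumed to vary as they do. The alternatives were a pseudocount of 0.1, no filter, a 5 FPKM filter, no trend, quantile normalization, a common median, each control left out, and leaving out the 473 small RNA genes tested (symbols that begin SNOR, SCARNA, RNU or MIR, other than host genes). The limma step was tested on simulated data. Members, lists and this last choice were made with earlier results of these data known. Besides the members, the 3 genes of largest absolute fold change in each list are named, with every other tubulin and stathmin; 1 gene of the luminal list is not reported here and was left out of its counts. Sequences come from RefSeq promoter windows (GRCh38.p14) and GENCODE transcripts, aligned with Biopython 1.88; coordinates are in that build, not the authors' hg19.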

Additional observations from a re-analysis of the deposited data

How the results depend on the processing

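Each member was lower in siE2F1 under every setting that kept it, with TUBB6 left out by the 5 FPKM filter, where 9 of 9 members were below both controls. The count of members called was 0 with a pseudocount of 0.1, with no filter, with the 5 FPKM filter and with no trend, and 7 without small RNA genes. The deposited libraries already share 1 distribution, so quantile normalization and a common median could change almost nothing (60 genes called in each) and are no separate check. Leaving out small RNA genes gave 1467 genes called, 886 of them lower, against 60 and 15. With a pseudocount of 0.1 there were 18 genes called, and with no filter 0, of which 0 were lower. E2F1 lost its call with a pseudocount of 0.1 (log2 fold change -2.59, adjusted p = 0.0601) and with no filter (-2.12, adjusted p = 0.159). Over all limma settings the adjusted p ran from 0.0320 to 0.188 for STMN1 and from 0.103 to 0.259 for TUBA4A. Leaving out control 0 or control 1 left 5 or 7 members at least 1.5-fold lower. These counts have no test, and the share of all genes was not counted for them. No paired analysis was possible because the single siE2F1 library carries no replicate number in the labels.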
